A study of Mus musculus with 23 samples.

Results

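The purinergic signalling genes P2ry14, P2ry6, P2rx4, P2rx7, Adora3, Adora2a, Entpd1 and Nt5e, were followed in microglia, the resident macrophages of the brain, of young and old mice with and without renewal of the cells. They are 8 of the 53090 genes in each deposited table, found by symbol, and all 8 passed the filter on low counts. P2ry14 was selected on its expected counts, which were higher in young repopulated than in young libraries, and the other 7 were added as members of the same signalling system with earlier results of these libraries known. Values of the 8 genes in that contrast are therefore a description with no test. The contrasts of old and of old repopulated with young share the young libraries, so P2ry14 is described there too, and it is tested only between old repopulated and old.

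The libraries came from female C57BL/6 mice of 2 ages: 7 libraries from young and 5 from old mice with their original microglia, and 3 from young and 8 from old mice whose microglia had been removed and renewed, here called repopulated. Repopulated mice had received PLX5622, an inhibitor of the receptor CSF1R on which microglia depend, at 1200 ppm in chow, and the treatment controls ate the same chow without the drug. The drug removes microglia, and new ones fill the brain once it is withdrawn. The sources used here do not give the ages, the length of treatment or the time allowed for refilling. In the labels' protocols, cells were selected magnetically on CD11b and cultured, while the RNA is described as coming from cells sorted by flow cytometry. Nothing in the labels says whether each library came from a separate animal, so p-values measure the spread between these libraries, which may in part be technical.

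Cells release ATP, UTP, UDP and UDP-glucose when damaged or active, and microglia read these nucleotides through P2X channels and P2Y receptors. Ectonucleotidases on the cell surface trim the nucleotides: Entpd1 (CD39) takes ATP and ADP to AMP, and Nt5e (CD73) takes AMP to adenosine, which acts on adenosine receptors. In microglia the system is best known for guiding processes towards injury, for uptake of debris and for inflammasome activation.

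The young libraries held 43.93 to 47.85 M counts (M is 1000000) and the old ones 43.66 to 50.98 M. The repopulated libraries held 44.9 to 47.77 M (young mice) and 45.73 to 58.19 M (old mice). Young replicate 3 had the fewest genes with a count, 16399 against 18752 to 22078 in the other young libraries, and leaving it out changed no call of a member. Titles number the libraries from 1 to 24, with a gap between 4 and 6. The numbers were split here into 2 runs, 1 to 11 and 12 to 24, since the order of groups starts again at 12. The young repopulated libraries lie only in the second run. All 7 microglial markers examined (among them Tmem119, Sall1 and Csf1r) had counts in every group, and their summed level was 15350 to 18720 CPM in young and 13080 to 15280 CPM in young repopulated libraries. CPM are counts per M, scaled by the trimmed mean of M-values (TMM). The sum was 6266 to 14880 CPM in old and 6090 to 16930 CPM in old repopulated libraries, so every young repopulated and every old library, and all old repopulated ones but replicate 1, lay below every young library. Summed markers of monocytes (7 genes) reached 2272 CPM in old and 2931 CPM in old repopulated libraries, against at most 237.6 CPM in young, and those of border-associated macrophages (7 genes) reached 878.1 and 1235 CPM against at most 223.2 CPM. Both young maxima are those of young replicate 3, and the other 6 young libraries held 16.08 to 32.43 CPM of monocyte and 58.17 to 136.7 CPM of border-associated macrophage markers. No gene of these 2 lists was at 0 throughout a group. Neutrophil markers (8 genes) summed to 10.28 to 82.11 CPM in young and 64.66 to 150 CPM in young repopulated libraries. Their sum was 82.52 to 209.7 CPM in old libraries, above every young one, and 66.75 to 298.6 CPM in old repopulated libraries. Ly6g of this list was under 1 CPM in every library. In such bulk samples, fewer cells of a type and less RNA per cell cannot be told apart.

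Of the 8 genes, 6 had an entry in the RefSeq promoter table (build GRCm38.p6), and P2ry6 and Adora2a had none. The 250 bases upstream of a start are shown for P2ry14 and P2rx4, which were both higher in young repopulated libraries. They are also shown for Adora3 and Entpd1, whose lowest levels were found in libraries with microglial sums below the young range. Most libraries outside the young group had such sums, so this is not particular to Adora3 and Entpd1. The lowest P2rx7 levels were found in such libraries too. Only windows free of annotated exons are printed. Capitals mark a match, on either strand, to the PU.1-type motif GAGGAAG (reverse complement CTTCCTC) or the AP-1 motif TGACTCA (reverse complement TGAGTCA). PU.1 and AP-1 are transcription factors of macrophages.
P2ry14, chr3:59131329-59131578, minus strand: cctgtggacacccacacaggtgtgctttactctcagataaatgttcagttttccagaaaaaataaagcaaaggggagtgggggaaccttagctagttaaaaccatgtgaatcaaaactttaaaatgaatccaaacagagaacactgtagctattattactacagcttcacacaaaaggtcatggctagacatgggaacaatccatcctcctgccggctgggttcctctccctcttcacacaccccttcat
P2rx4, chr5:122707294-122707543, plus strand: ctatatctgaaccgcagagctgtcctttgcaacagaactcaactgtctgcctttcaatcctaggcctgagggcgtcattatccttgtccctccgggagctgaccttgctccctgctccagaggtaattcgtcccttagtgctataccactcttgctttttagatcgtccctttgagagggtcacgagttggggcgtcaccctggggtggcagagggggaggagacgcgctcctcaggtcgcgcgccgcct
Adora3, chr3:105904171-105904420, plus strand: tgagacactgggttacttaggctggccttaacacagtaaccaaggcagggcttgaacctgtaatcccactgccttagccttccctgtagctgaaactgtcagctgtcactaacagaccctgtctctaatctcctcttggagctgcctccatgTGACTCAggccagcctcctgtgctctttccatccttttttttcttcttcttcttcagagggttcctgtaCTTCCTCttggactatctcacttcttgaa
Entpd1, chr19:40659520-40659769, plus strand: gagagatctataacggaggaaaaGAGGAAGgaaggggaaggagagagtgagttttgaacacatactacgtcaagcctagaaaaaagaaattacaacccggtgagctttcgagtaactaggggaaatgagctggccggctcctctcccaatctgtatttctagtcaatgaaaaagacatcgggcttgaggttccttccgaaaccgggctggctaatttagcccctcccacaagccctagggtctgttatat
The P2ry14 window precedes an internal RefSeq start whose first bases are in no GENCODE M21 transcript, while for the other 3 windows they are. The outermost of the P2ry14 windows, chr3:59153493-59153742, overlaps an annotated exon and is not printed, and it held both motifs. The Adora3 window held both motifs, without overlap between them, and the printed Entpd1 window held the PU.1-type motif. Both of these windows lie inside the annotated genes. Another Entpd1 window, chr19:40612116-40612365, lies directly upstream of the annotated gene. It overlaps an annotated exon, is not printed and held neither motif. Neither set of letters was in the printed P2ry14 and P2rx4 windows. P2rx7, also above all young libraries in young repopulated ones, has an exon-free window that is not printed, chr5:122650133-122650382. It held neither motif, while the P2rx7 window that overlaps an exon held the AP-1 motif. Nt5e was also above all young libraries in young repopulated ones. Its window overlaps an exon, is not printed and held neither motif. A link between motifs and levels was not tested. Over 32851 RefSeq windows of the same length, 10.6% held GAGGAAG and 4.46% held TGACTCA on either strand. A match is a stretch of letters and not a measured binding site.

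The 8 genes spanned a wide range of abundance. Per transcript length, as TPM (transcripts per M), the mean level in young libraries was 276 for Entpd1, 151 for P2ry6, 113 for P2rx4, 108 for P2rx7 and 71.7 for Adora3. It was 1.87 TPM for P2ry14, 0.207 TPM for Nt5e and 0.156 TPM for Adora2a. The first 5 are thus the abundant members in young microglia, and the last 3 are the scarce ones.

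**Figure D1:**
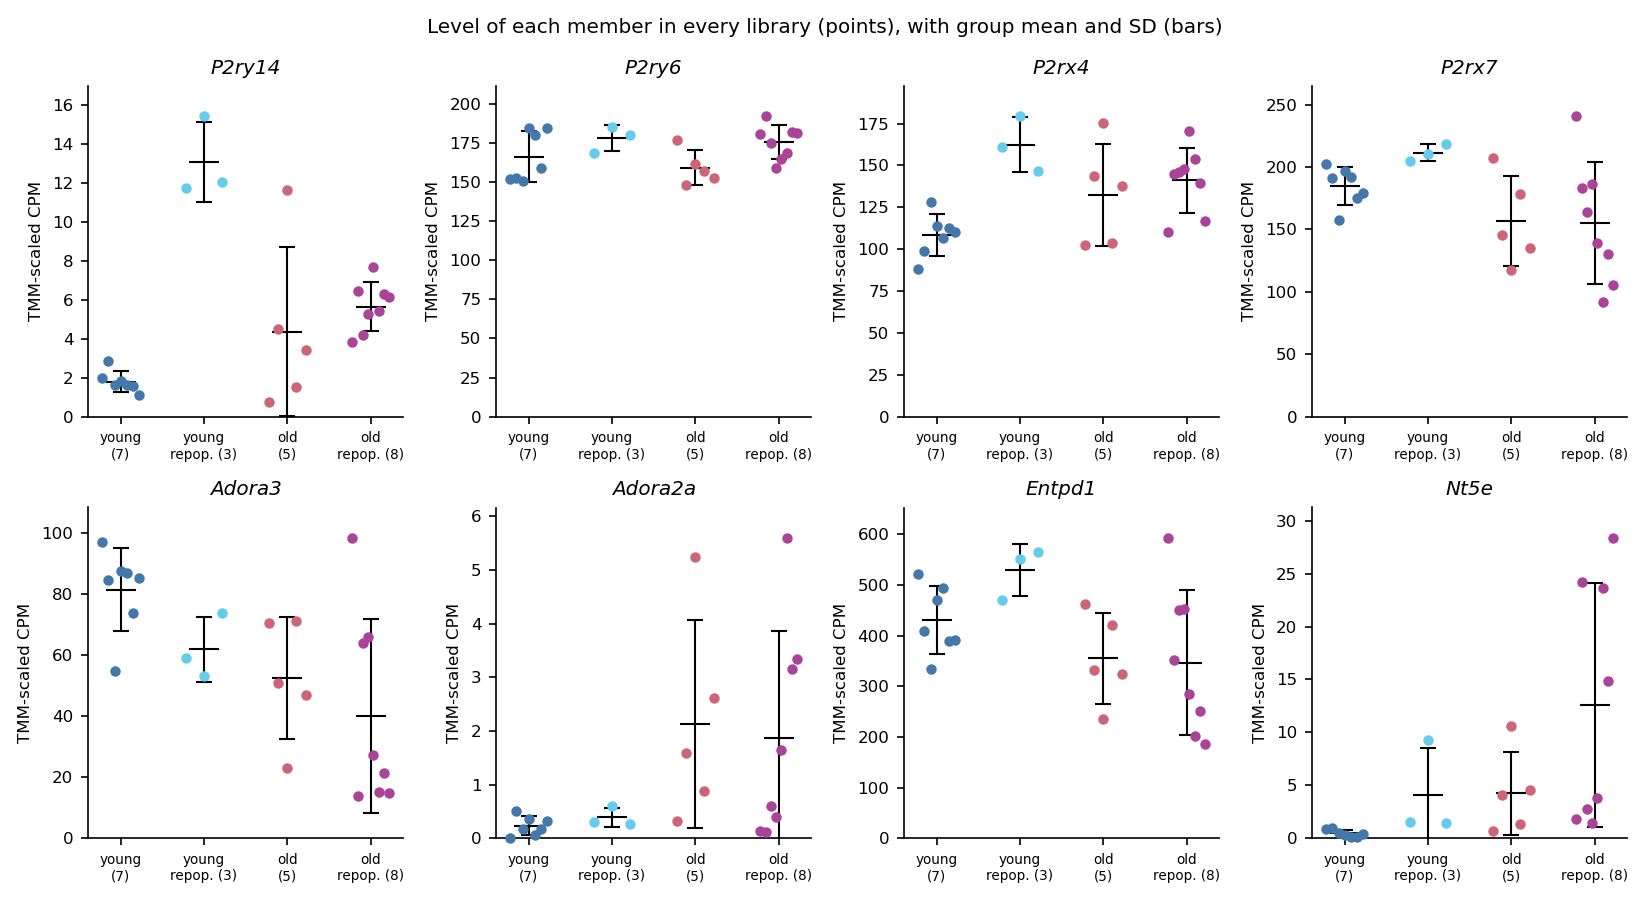
TMM-scaled CPM (vertical axis, from 0) of each of the 8 genes in every library (points) of the 4 groups (horizontal axis, n in brackets), with group mean and SD (bars, cut at 0). The 3 young repopulated libraries hold the highest P2ry14 levels, just above 1 old library at 11.65 CPM, and Nt5e and Adora2a are near 0 in young libraries.

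P2ry14 encodes a Gi-coupled receptor for UDP-glucose and related nucleotide sugars, and the gene lies at chr3:59113855-59153618 on the minus strand (GRCm38, GENCODE M21). Its level in the 7 young libraries ran from 1.12 through a median of 1.62 to 2.87 CPM. In the 3 young repopulated libraries it was 11.71, 15.42 and 12.05 CPM. Every young repopulated library thus lay far above every young one, an order without overlap that 5.97% of the 18720 genes tested had in this direction. The young repopulated mean was 13.06 ± 2.05 CPM (SD, n = 3) against 1.80 ± 0.54 CPM (SD, n = 7), a 7.25-fold difference (log2 2.86 ± 0.45 SE). This is the contrast that chose the gene. Against the 4 young libraries of the same run of numbers, which held 1.12 to 1.82 CPM, the log2 difference was 3.12.

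In the 5 old libraries P2ry14 was at 0.74, 4.48, 11.65, 1.55 and 3.42 CPM. The group was widely spread, with replicate 1 below all young libraries and replicate 3 almost at the young repopulated level. The log2 difference from young was 1.28 ± 0.41 (SE), and it was 0.50 without old replicate 3. That library had the highest monocyte sum of its group (2272 CPM) and the lowest microglial sum (6266 CPM). Within library numbers 1 to 11 the difference was 0.27.

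In the 8 old repopulated libraries P2ry14 ran from 3.82 through a median of 5.79 to 7.66 CPM. All 8 lay above all 7 young libraries, and all 8 lay below all 3 young repopulated ones. Of the 18720 genes tested, 0.983% had old repopulated wholly above young, and 1.05% had old repopulated wholly below young repopulated. Both the young and the young repopulated libraries were used to choose P2ry14, which favours such orders. These shares are therefore a description and not a test. The log2 difference from young was 1.65 ± 0.37 (SE), with 1.34 in library numbers 1 to 11 and 1.97 in 12 to 24. Against old libraries it was 0.37 ± 0.40 (SE), and this test, the only 1 given for P2ry14, did not pass (adjusted p = 0.845, edgeR quasi-likelihood test with Benjamini-Hochberg adjustment over all genes tested, as for every adjusted p below). Without old replicate 3 that difference was 1.15 and was still not past the threshold of 0.05. By group mean the order was young repopulated (13.06 CPM), old repopulated (5.65 CPM), old (4.37 CPM) and young (1.80 CPM). Only the first step of that order separated the libraries without overlap.

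Levels of markers of other myeloid cells were set beside P2ry14. In the 3 young repopulated libraries, where P2ry14 was highest, border-associated macrophage markers summed to 410.8, 332.8 and 294.8 CPM, monocyte markers to 185.3, 280.1 and 76.17 CPM and dendritic cell markers (5 genes) to 15.83, 25.89 and 11.92 CPM. All but the monocyte sums of replicates 1 and 3 lay above every young library, and those 2 lay above every young library but replicate 3. Against young, 6 of 7 border-associated macrophage, 7 of 7 monocyte and 3 of 5 dendritic cell markers had a positive log2 difference. Called higher with edgeR were 1, 0 and 1 of these, beside 1.34% of all genes called in either direction. The dendritic cell markers Xcr1 and Clec9a were under 1 CPM in these 3 libraries. In old repopulated replicates 2, 5, 6, 7 and 8 the border-associated macrophage sum was between 647.6 and 1235 CPM, with P2ry14 between 5.44 and 7.66 CPM. In old repopulated replicates 1, 3 and 4, with P2ry14 at 3.82, 4.18 and 5.28 CPM, the monocyte sum was 94.79, 189.7 and 116.5 CPM and the border-associated macrophage sum 70.33, 222.7 and 163.6 CPM. These sums were below those of young replicate 3, but the monocyte sums of all 3 libraries and the border-associated macrophage sums of replicates 3 and 4 were above those of the other 6 young libraries. The part of other myeloid cells in the P2ry14 values was not tested.

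P2ry14 lies within Med12l, which is read from the opposite strand, together with its relatives P2ry12 and P2ry13. The library kit keeps strand, but whether counting used it is not stated in these sources, so reads of P2ry14 and Med12l might not be told apart. Med12l was at 16.32 to 33.93 CPM in young and at 25.48, 24.13 and 30.42 CPM in young repopulated libraries, so its groups overlapped where those of P2ry14 did not. How reads were shared between P2ry14 and Med12l was not tested. P2ry12, the ADP receptor that guides microglial processes, was at 1298 to 2011 CPM in young and 1119 to 1407 CPM in young repopulated libraries. P2ry13, another ADP receptor, was at 332.6 to 565 CPM and 489.4 to 557.6 CPM. The neighbouring receptors thus did not share the higher P2ry14 level in young repopulated libraries (log2 difference of P2ry12 -0.51 ± 0.47 SE and of P2ry13 0.10 ± 0.38 SE).

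The genes most like P2ry14 over the 23 libraries, by Spearman's rho of log2 CPM among the 9619 genes with a mean CPM of 5 or more, were Sgsh (0.891), Map3k1 (0.881), Myo9b (0.877), Specc1l (0.875) and Arhgap15 (0.866). Among the other 7 members the nearest was P2rx4, with a rho of 0.838. These values describe libraries that share group structure, depth and cell content, and no p is attached to them.

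P2ry6, at chr7:100937630-100974649 on the minus strand, encodes the Gq-coupled UDP receptor that promotes phagocytosis in microglia. Its level ran from 150.5 through 159 to 184.6 CPM in young libraries and was 168.6, 184.9 and 179.8 CPM in young repopulated ones. Old libraries held 176.6, 147.7, 161.5, 157.1 and 152.2 CPM, and old repopulated ones ran from 159.1 through 177.7 to 192 CPM. All 4 groups overlapped, with every library between 147.7 and 192 CPM. The log2 difference was -0.06 ± 0.07 (SE) for old versus young (adjusted p = 0.759, edgeR), 0.14 ± 0.07 for old repopulated versus old (0.514) and 0.08 ± 0.06 for old repopulated versus young (0.443). For young repopulated versus young it was 0.10 ± 0.09. The largest likeness of another gene to P2ry6 was lower than for any other member, with Mrps35 at a rho of 0.76.

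P2rx4, at chr5:122707544-122729738 on the plus strand, encodes an ATP-gated cation channel. It was at 87.98 to 128 CPM in young libraries (median 110.3) and at 161, 179.5 and 146.7 CPM in young repopulated ones. Here too the groups did not overlap, an order that 5.97% of all genes tested had, and the log2 difference was 0.58 ± 0.15 (SE). In old libraries P2rx4 was at 102.8, 143.5, 175.3, 103.5 and 137.9 CPM, of which replicates 2, 3 and 5 lay above all young ones. Old repopulated libraries ran from 110.5 through 145.5 to 170.7 CPM, and 6 of 8 lay above all young libraries.

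P2rx4 rose in old repopulated against young libraries, by 1.30-fold (log2 0.38 ± 0.11 SE, adjusted p = 0.0254, edgeR). The call was lost without young replicate 1 (adjusted p = 0.0574), old repopulated replicate 5 (0.0539) or old repopulated replicate 6 (0.0504). It was also not made within library numbers 12 to 24 alone (log2 0.31, adjusted p = 0.104) or 1 to 11 alone (0.46, adjusted p = 0.412). The differences of old from young (log2 0.29 ± 0.13 SE, adjusted p = 0.261) and of old repopulated from old (0.09 ± 0.12, adjusted p = 0.895) did not pass. Apoe, the lipid carrier that is high in activated microglia, was the gene most like P2rx4 (rho 0.908), ahead of Gsto1 (0.887) and Map3k1 (0.882), the last of which also ranked second for P2ry14.

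P2rx7, the ATP-gated channel upstream of the NLRP3 inflammasome, is the neighbour of P2rx4 at chr5:122643911-122691432, also on the plus strand. Its level was 157.7 to 202.3 CPM in young (median 191.4) and 205.2, 210.1 and 218.7 CPM in young repopulated libraries. The 3 young repopulated libraries lay above all young ones by a small margin (log2 0.19 ± 0.21 SE), an order that 5.97% of all genes tested had. Old libraries held 207, 145.5, 117.9, 178.7 and 135.1 CPM, and old repopulated libraries ran from 92.27 through 151.6 to 240.8 CPM. Both old groups therefore reached above and below the young range. No test passed: the log2 difference was -0.24 ± 0.18 for old versus young (adjusted p = 0.584, edgeR), -0.02 ± 0.17 for old repopulated versus old (0.993) and -0.25 ± 0.16 for old repopulated versus young (0.291). The last of these passed in the quality-weighted voom fit (log2 -0.45, adjusted p = 0.00352) and within library numbers 12 to 24 (-0.76, adjusted p = 0.00123). Entpd1 was among the 3 genes most like P2rx7 (rho 0.956), with Arhgap27 (0.96) and Zfp467 (0.957).

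Adora3 encodes a Gi-coupled adenosine receptor and lies at chr3:105870858-105908926 on the plus strand. Young libraries ran from 54.84 through 85.4 to 97.3 CPM, and young repopulated ones held 59.15, 53.15 and 73.81 CPM. Old libraries held 70.61, 50.95, 23.05, 71.28 and 47.02 CPM. The old repopulated libraries fell apart into high and low ones, at 98.65, 13.72, 63.93, 66.11, 27.21, 15.09, 21.3 and 14.89 CPM. Replicates 2, 5, 6, 7 and 8 lay below every young library, and replicate 1 lay above every one.

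The log2 difference of Adora3 between old repopulated and young libraries was -1.02 ± 0.37 (SE) and narrowly missed the threshold (adjusted p = 0.0605, edgeR). DESeq2 called it (adjusted p = 0.0217), as did voom with sample quality weights (log2 -1.70, adjusted p = 3.6e-05) and the fit with the library number run as a block (log2 -1.33, adjusted p = 0.0127). Without old repopulated replicate 1 it was -1.34 (adjusted p = 0.00589), and it was also called without old repopulated replicate 3 (0.0413) or 4 (0.0372), without old replicate 3 (0.0499) and with only genes of mean CPM of 5 or more (0.0486). Within library numbers 12 to 24 it was -2.28 (adjusted p = 0.000172), and within 1 to 11 it was -0.54 (adjusted p = 0.717). Old versus young (-0.63 ± 0.42, adjusted p = 0.517) and old repopulated versus old (-0.39 ± 0.40, adjusted p = 0.832) did not pass, though the latter did within library numbers 12 to 24 (-1.47, adjusted p = 0.0124). Across libraries Adora3 was closest to Sall1, a transcription factor specific to microglia (rho 0.967), to Tmem100 (0.958) and to P2ry12 (0.958). The 5 old repopulated libraries low in Adora3 had microglial sums of 6090 to 10060 CPM, and replicates 1, 3 and 4 had 16930, 12360 and 14550 CPM. Whether the lower Adora3 came with fewer microglia was not tested. Tmigd3, which overlaps Adora3 on the same strand and could share its reads, was at most at 7.13 CPM (old repopulated replicate 4).

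Adora2a, at chr10:75316877-75334784 on the plus strand, encodes a Gs-coupled adenosine receptor, which raises cyclic AMP. It was scarce in young libraries, at 0 to 0.51 CPM with a median of 0.18. In these, 1 library, young replicate 1, had no count, which allows up to 0.0644 CPM without TMM scaling (3 counts, counting error only). Young repopulated libraries held 0.30, 0.60 and 0.26 CPM, overlapping the young ones. Old libraries held 0.32, 1.59, 5.24, 0.89 and 2.62 CPM, of which 4 of 5 lay above all young ones. Old repopulated replicates 1 to 8 held 0.14, 0.11, 0.60, 0.40, 1.65, 5.60, 3.15 and 3.34 CPM. Replicates 5 to 8 were thus well above the young range, while 1, 2 and 4 lay within it.

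Adora2a rose in old repopulated against young libraries (log2 3.00 ± 0.84 SE, adjusted p = 0.0198, edgeR). The call was lost without old repopulated replicate 6 (adjusted p = 0.0519) and within library numbers 1 to 11 (log2 1.33, adjusted p = 0.771). Within 12 to 24 the log2 difference was 4.11 (adjusted p = 0.000376). For old versus young the log2 difference was 3.19 ± 0.90 and missed the threshold (adjusted p = 0.0555), while DESeq2 (adjusted p = 0.00475), voom with sample quality weights (0.0172) and a fit of only the groups compared (0.0436) called it. It was called as well without old replicate 1 (adjusted p = 0.0268) or old repopulated replicates 1 (0.0337), 2 (0.0393) or 6 (0.0474). For old repopulated versus old it was -0.18 ± 0.83 (adjusted p = 0.981). Old repopulated replicates 5 to 8, in which Adora2a was high, had monocyte sums of 868.1 to 2931 CPM, and replicates 1 to 4 had 94.79 to 189.7 CPM. The part of monocytes in these values was not tested. The genes most like Adora2a were Ece1 (rho 0.917), Fgr (0.902), a kinase of myeloid cells, and Palm (0.899).

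Entpd1, at chr19:40612366-40741602 on the plus strand, was the most abundant of the 8 genes. Young libraries ran from 334.6 through 408.5 to 522.6 CPM and young repopulated ones held 470.9, 552.1 and 565.2 CPM. Old libraries held 462.7, 332.5, 235.3, 421.4 and 323.6 CPM, and old repopulated ones ran from 186.1 through 318.1 to 593.5 CPM. All groups overlapped with the young one, and the old repopulated group had the widest spread. The log2 difference was -0.28 ± 0.23 (SE) for old versus young (adjusted p = 0.637, edgeR), -0.03 ± 0.23 for old repopulated versus old (0.989) and -0.31 ± 0.20 for old repopulated versus young (0.323). The last of these passed with voom (log2 -0.63, adjusted p = 0.00311) and within library numbers 12 to 24 (-1.02, adjusted p = 0.000934), and was 0.0227 within 1 to 11 (adjusted p = 0.986). For young repopulated versus young it was 0.30 ± 0.27. Vsir (rho 0.965), Zscan26 (0.961) and Tjp1 (0.959) followed it most closely.

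Nt5e, the enzyme that follows Entpd1 in the pathway, lies at chr9:88327197-88372092 on the plus strand. It was near the floor in young libraries, from 0.13 through 0.37 to 0.98 CPM. Young repopulated libraries held 1.54, 9.24 and 1.46 CPM, all above the young range, an order that 5.97% of all genes tested had. Old libraries held 0.70, 4.09, 10.59, 1.40 and 4.54 CPM, of which 4 of 5 lay above all young ones. Old repopulated replicates 1 to 8 held 1.80, 24.22, 2.73, 1.49, 3.76, 23.61, 14.90 and 28.40 CPM. All 8 lay above every young library, an order that 0.983% of all genes tested had. Replicates 2, 6, 7 and 8 also lay above every old one.

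Nt5e rose in old against young libraries (log2 3.16 ± 0.81 SE, adjusted p = 0.0348, edgeR), and this call depended on single libraries. It was lost without old replicate 3 (log2 2.50, adjusted p = 0.204), old replicate 5 (adjusted p = 0.072) or any 1 of young replicates 4 to 7 (adjusted p from 0.0718 to 0.0772), with the library number run as a block (adjusted p = 0.0566) and with voom (0.0671). Within library numbers 12 to 24 the log2 difference was 4.49 (adjusted p = 0.00327), and within 1 to 11 it was 1.62 (adjusted p = 1). Nt5e also rose in old repopulated against young libraries, by 26.5-fold (log2 4.73 ± 0.81 SE, adjusted p = 0.00097), and that call stood in each fit that left out 1 library. It was 6.52 within 12 to 24 (adjusted p = 0.000143) and 3.13 within 1 to 11 (adjusted p = 0.399). Old repopulated versus old did not pass (1.56 ± 0.78, adjusted p = 0.505). For young repopulated versus young the log2 difference was 3.10 ± 0.87, and it was 1.70 without young repopulated replicate 2.

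Nt5e and Adora2a parted in single libraries. Old repopulated replicate 2 was among the highest for Nt5e (24.22 CPM) and the lowest of its group for Adora2a (0.11 CPM), with a border-associated macrophage sum of 809.7 CPM and a monocyte sum of 129.2 CPM. Old repopulated replicate 5 held 3.76 CPM of Nt5e and 1.65 CPM of Adora2a, with sums of 647.6 and 1303 CPM. The part of these cells in the Nt5e values was not tested. CD73 is also known on lymphocytes, and the 8 markers of T and NK cells summed to at most 2.34 CPM in any library, with Cd3g and Nkg7 at 0 in all young ones. The 3 B cell markers summed to 13 to 18.84 CPM in young and 1.334 to 11.58 CPM in old repopulated libraries. Cd79a and Ms4a1 were under 1 CPM throughout, so the sum in young libraries was mostly Cd79b. Between old repopulated and young 2 of the 3 had a positive log2 difference, and 1 was called lower with edgeR. The genes most like Nt5e were Ybx3 (rho 0.967), Tle1 (0.964) and Cav2 (0.949).

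**Figure D2:**
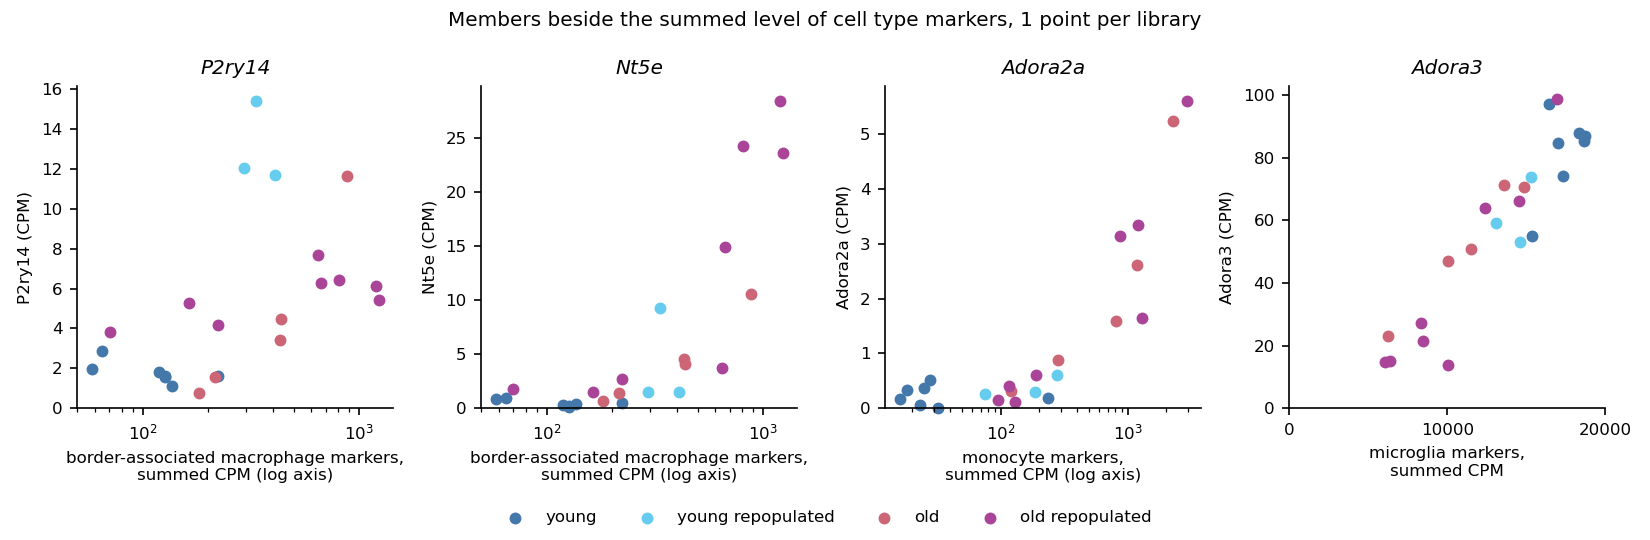
CPM of P2ry14, Nt5e, Adora2a and Adora3 (vertical axes) against the summed CPM of a marker list (horizontal axes, log scale except for microglia), 1 point per library. The 3 young repopulated libraries have P2ry14 of 11.71 CPM or more at border-associated macrophage sums of 294.8 to 410.8 CPM, Adora2a is above 1 CPM only in libraries with monocyte sums of 812.1 CPM or more, and the lowest Adora3 levels lie at low microglial sums.

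The balance of the 2 enzyme transcripts was described per library as the ratio of Entpd1 to Nt5e in TPM. It ran from 670.5 through a median of 1364 to 4650 in young libraries. The highest ratios, in young replicates 5 and 6, rest on 0.07 TPM of Nt5e from 8 and 6 counts and are imprecise. Young repopulated libraries had ratios of 495.1, 86.09 and 653.1, all below the young range. Old libraries had 1068, 137, 35.26, 498.4 and 116.7, and old repopulated ones ran from 10.56 through 81.07 to 568.5. Every old repopulated library was below every young one, and in that comparison Nt5e passed the test and Entpd1 did not. How often the ratios of other gene pairs had such orders was not computed. These are transcript ratios and say nothing of enzyme activity.

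Counted together, 1 of the 7 members tested rose between old and young (Nt5e), beside 2.83% of all 18720 genes called in either direction and 2.6% called higher, and 3 of 7 had an unadjusted p under 0.05, beside 15.3% of all genes. The median log2 difference of the 7 was -0.06, against -0.01 for all genes. Between old repopulated and young 3 of 7 rose (P2rx4, Adora2a and Nt5e) and none fell with edgeR, beside 15.2% of all genes called (9.29% higher and 5.92% lower). The median of the 7 was 0.08 against -0.02 for all genes, and 4 of 7 had an unadjusted p under 0.05, beside 30.5% of all genes. Between old repopulated and old 0 of 8 passed with edgeR, DESeq2 or voom, beside 0.278% of all genes called with edgeR. An unadjusted p under 0.05 was found for 0 of 8 and for 10.4% of all genes. The median log2 difference of the 8 was 0.04, against 0.00 for all genes. In the contrast that chose P2ry14, young repopulated versus young, no member was counted. The median of the 8 was 0.44 there, against -0.04 for all genes.

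**Figure D3:**
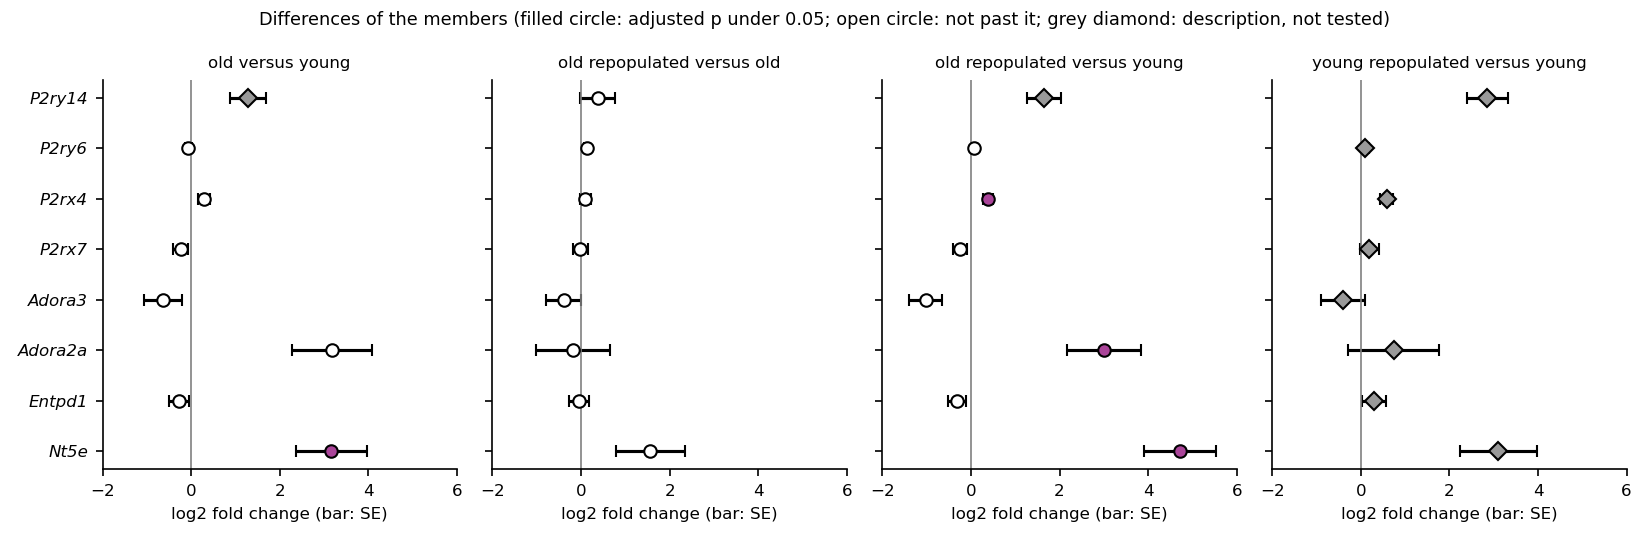
log2 fold change (horizontal axis, bars are SE) of the 8 genes in 4 comparisons. Filled circles passed an adjusted p of 0.05 (Nt5e in old versus young, and P2rx4, Adora2a and Nt5e in old repopulated versus young), open circles did not, and grey diamonds are descriptions with no test.

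The repopulation effect in old mice was also set against that in young mice, as the difference of the 2 log2 differences. None of the 18720 genes was called in this interaction with edgeR (0%), the only tool run for it, and 1542 had an unadjusted p under 0.05. For P2rx4 the old effect was lower than the young one by a log2 difference of -0.49 ± 0.19 (SE), for Nt5e by -1.54 ± 1.15 and for Entpd1 by -0.33 ± 0.35. P2ry6 (0.04 ± 0.11) and Adora3 (0.00 ± 0.63) had differences near 0. The young side of these values is the contrast that chose P2ry14.

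A wider set of 45 purinergic genes without the 8 members held 38 that passed the filter on low counts. P2rx2, P2ry4, Entpd2, Entpd8, Alpl, Slc29a4 and Gnai1 did not. Between old and young 5 of 38 rose and none fell, beside 2.6% of all genes called higher. An unadjusted p under 0.05 was found for 13 of 38 and for 15.3% of all genes, and the median log2 difference was -0.04 against -0.01 for all genes. Of the 5, 3 are ectoenzymes: Acpp, an acid phosphatase that also makes adenosine (log2 3.24 ± 0.72 SE, adjusted p = 0.0162), and the NAD-consuming Cd38 (3.22 ± 0.80, adjusted p = 0.0292) and Bst1 (2.50 ± 0.64, adjusted p = 0.035). The others were the ADP receptor P2ry1 (4.80 ± 1.04, adjusted p = 0.0133) and the nucleoside transporter Slc28a2 (4.29 ± 0.77, adjusted p = 0.00517), all with edgeR.

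These genes were scarce in young libraries and uneven in old ones. P2ry1 had no count in 4 of 7 young libraries and was at 0.14, 3.52, 5.17, 1.15 and 1.83 CPM in old ones. Slc28a2 was at 0.47 to 1.04 CPM in young and at 1.08, 9.87, 38.74, 3.75 and 18.48 CPM in old libraries. Cd38 was at 2.20 to 23.09 CPM in young and at 4.69, 55.75, 158.3, 24.03 and 57.02 CPM in old libraries. Old replicate 3 was the highest and replicate 1 the lowest old library for each of the 3, as replicate 3 was for the monocyte sum (2272 CPM) and replicate 1 was lowest (121.6 CPM). Without old replicate 3 only Slc28a2 was called. Cd38 and Bst1 were also not called without old replicate 5 or without any 1 of young replicates 1, 2 and 4 to 7. The part of monocytes was not tested.

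Between old repopulated and young 8 of 38 rose and 5 fell, beside 9.29% of all genes called higher and 5.92% lower, with a median log2 difference of 0.14 against -0.02. An unadjusted p under 0.05 was found for 19 of 38 and for 30.5% of all genes. The 5 genes just named rose again, with the young libraries shared between the comparisons, and Adora2b, a low-affinity adenosine receptor (2.83 ± 0.87 SE, adjusted p = 0.0306), the ATP release channel Panx1 (0.55 ± 0.16, adjusted p = 0.0273) and Ugp2, which makes the P2ry14 ligand UDP-glucose (0.66 ± 0.17, adjusted p = 0.012), rose with them. The receptors that fell were Adora1, a Gi-coupled adenosine receptor (-1.77 ± 0.46, adjusted p = 0.0135), the channel P2rx1 (-1.15 ± 0.27, adjusted p = 0.00738) and P2ry12 (-1.20 ± 0.35, adjusted p = 0.023). The anion channel subunit Lrrc8a (-0.61 ± 0.14, adjusted p = 0.00573) and Gnas, the Gs alpha subunit (-0.53 ± 0.16, adjusted p = 0.0324), fell as well, all with edgeR. P2ry12 ran from 239.3 to 1947 CPM in old repopulated libraries, and 7 of 8 lay below all young ones. The same 7 libraries, replicates 2 to 8, had microglial sums of 6090 to 14550 CPM, below the young range. Adora2b was highest in replicate 6 (23.45 CPM), which also had the highest monocyte sum (2931 CPM) and border-associated macrophage sum (1235 CPM). The part of these cells in the genes that rose or fell was not tested.

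Between old repopulated and old 0 of 38 were called with edgeR, beside 0.278% of all genes. An unadjusted p under 0.05 was found for 2 of 38 and for 10.4% of all genes. Between young repopulated and young, where 1.34% of all genes were called, 1 of 38 rose with edgeR, P2ry1 (4.53 ± 1.09, adjusted p = 0.0394), at 4.29, 0.67 and 0.93 CPM against at most 0.39 CPM in young libraries. It lost the call without any 1 of the young repopulated libraries, young replicates 1, 2, 5, 6 and 7 or old replicate 5, and without old repopulated replicate 1 Slc28a2 was called as well. The median of the 38 genes was 0.10 in this comparison, against -0.04 for all genes.

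**Figure D4:**
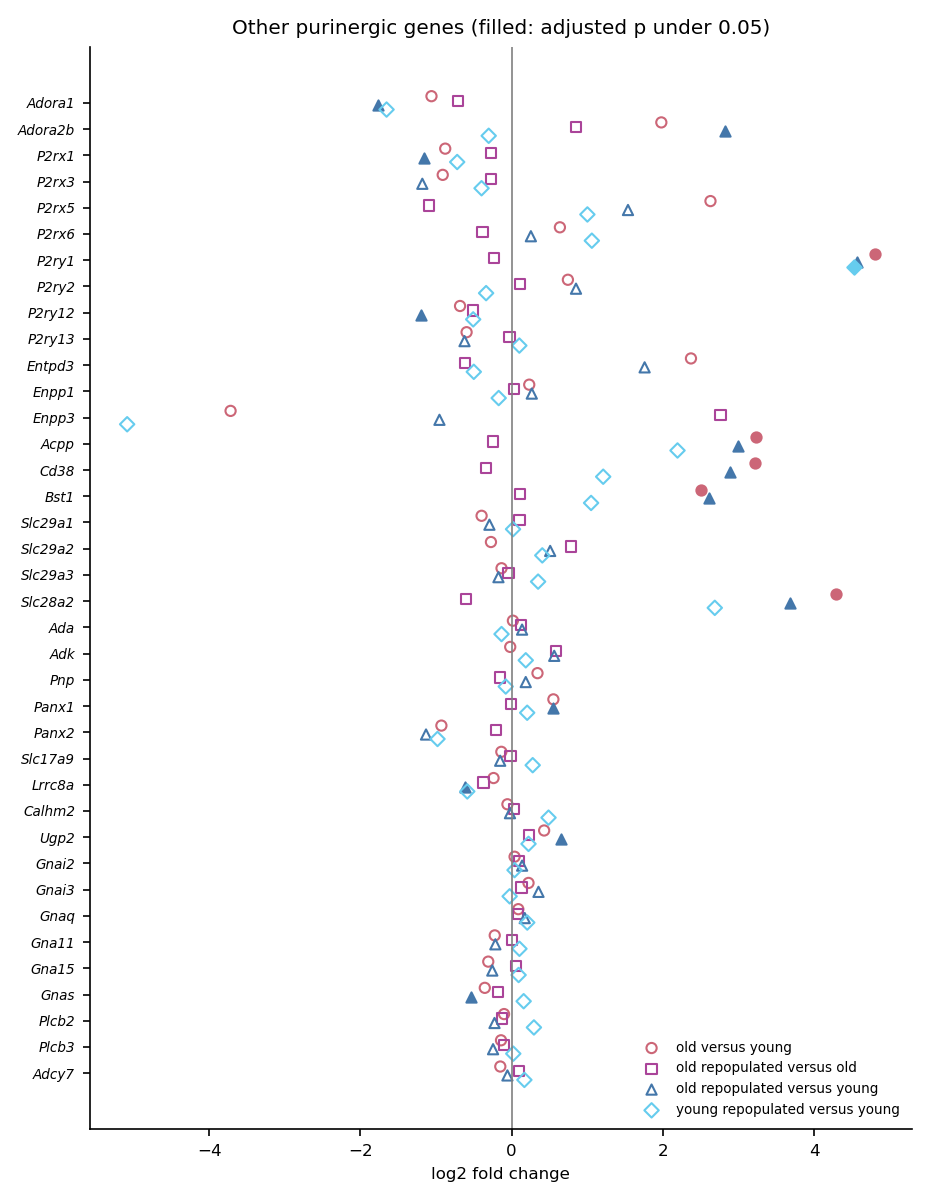
log2 fold change (horizontal axis) of the 38 other purinergic genes tested (vertical axis), with 1 symbol per comparison, filled where the adjusted p was under 0.05. P2ry1 is the 1 gene filled in 3 of the 4 comparisons, and no gene is filled for old repopulated versus old.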

How the data were processed

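Poly(A) RNA from 23 libraries was sequenced as single reads of 50 nt, per the labels' protocols. The submitters' processing notes name FastQC 0.11.5, STAR, RSEM, limma and build GRCm38. The authors deposited RSEM-type tables of expected counts, effective lengths (other columns, a length in bases, kept only for reference) and TPM per gene. Of the deposited expected counts 87.3% were whole within 1e-06, and all were rounded. No 2 libraries were identical. All libraries entered 1 edgeR 4.0.16 fit (R 4.3.3) with filterByExpr, TMM and 1 coefficient per group. TPM was used only to compare levels between genes. A gene was called at an adjusted p under 0.05. Alternatives were RLE and upper-quartile factors, no filter, a mean CPM of at least 5, DESeq2 1.42.0, voom with quality weights (limma 3.58.1), the groups compared alone, library number run as block or within it, and leaving out each library. The interaction was fitted beside the planned contrasts. In simulated counts for old repopulated versus old, 48.6% of 2-fold changes were recovered. Named genes were the 8 members, called genes of the wider lists, list genes named for their level, and the genes of nearest rho (5 for P2ry14, 3 for each other member, without predicted genes). The members and lists were chosen with earlier results of these data known. A microglial and a B cell marker on the lists are not reported here and were left out of the marker sums.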

Additional observations from a re-analysis of the deposited data

How the results depend on the processing

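Of the 7 members tested, 1 was called for old versus young. The count was 2 with DESeq2, with only the groups compared and within library numbers 12 to 24, and 0 with the library number run as block and within 1 to 11. For old repopulated versus old it was 1 within 12 to 24 (Adora3). For old repopulated versus young it was 6 with voom, 5 within 12 to 24 and 0 within 1 to 11. Both the 6 and the 5 include falls of P2rx7, Adora3 and Entpd1. In the wider lists the 5 calls of old versus young became 3 at a mean CPM of at least 5, 15 with voom, 14 within 12 to 24 and 0 within 1 to 11. For old repopulated versus old there were 8 within 12 to 24. The 13 calls of old repopulated versus young became 25 with voom, 26 within 12 to 24 and 0 within 1 to 11. The 1 call of young repopulated versus young became 0 at a mean CPM of at least 5, 2 with DESeq2, 9 with voom, 6 with only the groups compared and 5 within 12 to 24. Leaving out 1 library at a time gave 0 to 2, 0 to 0 and 1 to 4 members called, and 1 to 6, 0 to 0 and 10 to 19 wider genes, in the order old versus young, old repopulated versus old and old repopulated versus young. For young repopulated versus young it gave 0 to 2 wider genes, and members were not counted, since that contrast chose P2ry14. The lowest member count of old repopulated versus young, 1, came without old repopulated replicate 6. Shares of all genes called in these alternative fits were not computed. A change in these counts can therefore not be told from a change in calls over all genes.

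Signs turned in differences that were not called. Within 1 to 11 they were 0.10 for P2ry6 (old versus young), 0.059 for P2rx7 and 0.11 for Entpd1 (both old repopulated versus old) and 0.0227 for Entpd1 (old repopulated versus young). Within 12 to 24 they were -0.0201 for P2rx4 and 0.48 for Adora2a (old repopulated versus old). With the library number run as block, the described difference of Adora2a between young repopulated and young was -0.10, against 0.74 without it. When 1 library was left out, old repopulated versus old ran from -0.13 to 0.10 for P2rx7, -0.67 to 0.47 for Adora2a and -0.18 to 0.0742 for Entpd1. The causes were not tested. Library numbers 1 to 11 hold 3 young and 2 old libraries, and no young repopulated one. No paired analysis was possible because the titles give every library a number of its own. At 3 counts a library the floor is 0.0516 to 0.0687 CPM without TMM scaling, which limits Adora2a and P2ry1 in young libraries.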
